A study of Mus musculus with 4 samples.

Results

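Parathyroid hormone (PTH) is the blood-borne peptide of the parathyroid glands that raises blood calcium by acting on bone and kidney. Its relative PTHrP, the product of Pthlh, is made locally in many embryonic tissues and binds the same receptor, PTH1R, a class B G protein-coupled receptor that signals through cAMP and, more weakly, through phospholipase C. In growth cartilage PTHrP and Indian hedgehog form a feedback loop that sets when cartilage cells stop dividing, and in the osteoblast lineage PTH1R is a receptor for both peptides. Another peptide, TIP39 (Pth2), acts in the brain through PTH2R. Gcm2 is the transcription factor that the parathyroid gland needs to form, and Casr encodes the calcium-sensing receptor that restrains PTH secretion.

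The genes described here are these 7 (Pth, Pthlh, Pth2, Pth1r, Pth2r, Gcm2 and Casr), chosen by their symbols from 55487 gene rows of a count table. All 7 rows were found. The set was proposed with results of this contrast known, so the difference of these 7 genes between the groups is given as a description, with no test. The material was poly(A) RNA of the calvaria, the vault of the skull, from E14.5 mouse embryos. Of the 4 libraries, 2 are of frontal bone, and 2 hold parietal with interparietal bone, so that the last 2 bones cannot be separated. No treatment, engineered allele, strain, sex or number of embryos per library is given in the labels. They also do not state that replicate libraries are from different embryos, so a p-value here reflects variation among these 4 libraries, and that variation may be technical. The study is on vesicles that carry citrate and on biomineralization, and its transcriptome part compared regions of the vault.

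Total counts were between 24069177 and 35555013 per library, with both frontal libraries the deeper ones. Levels are given in CPM, counts scaled to a common library depth, after TMM (trimmed mean of M) scaling. The floor of 3 counts, used here as the limit for a count of 0, corresponded to 0.0852 to 0.123 CPM. Markers of several tissues were looked up beside the tissue labels. All 16 osteoblast markers passed the filter on low counts. So did all 14 markers of cerebral cortex and all 12 of epidermis, so passing it does not check the bone label. All 14 markers of the cerebral cortex were higher in the frontal libraries, where their summed level was 607.4 and 636.6 CPM against 119.4 and 116.7 CPM, and 9 of 14 markers of midbrain and hindbrain were lower. In the whole table, 2657 of 20947 tested genes (12.7%) passed, and are said to be called, at an adjusted p under 0.05 in edgeR's quasi-likelihood test, and 5373, 7279, 882 and 865 when frontal 1, frontal 2, parietal-interparietal 1 or parietal-interparietal 2 was left out. With library totals as the only scaling, 984 genes were called higher and 1606 lower, against 1309 higher (6.25%) and 1348 lower (6.44%) with TMM. In bulk tissue, fewer cells of a type and less RNA per cell cannot be told apart.

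The stretches before the start sites of the ligand genes are shown because Pth and Pthlh, whose products share a receptor, were distributed differently over the libraries. RefSeq (build GRCm38.p6) gave 9 start sites for the 7 genes, 3 of them for Pth1r and 1 for each of the others. These starts can differ from the gene ends given below, which come from GENCODE. The Pthlh stretch lies partly inside that gene, whose annotated 5′ end is at 147264183. The stretches of Gcm2 and Pth2r lie wholly inside their genes, as do some of Pth1r. Each line gives the 250 bases before the start, 5′ to 3′ on the gene's strand, chr7:113388574-113388823 (minus strand) for Pth and chr6:147264014-147264263 (minus strand) for Pthlh. Capitals mark matches, on either strand, to TATAAA (a core promoter element), TGACGTCA (the cAMP response element palindrome), TGACATCA (a variant of it) and ATGCGGGT (a GCM motif). The other motifs marked were the GC box, GGGCGG, and the motif of GATA factors, written here as AGATAA. A further one, the box bound by NF-Y, was searched as CCAAT, and no searched motif overlaps another in the lines shown. The motifs were picked after the Pth stretch had been read.
Pth: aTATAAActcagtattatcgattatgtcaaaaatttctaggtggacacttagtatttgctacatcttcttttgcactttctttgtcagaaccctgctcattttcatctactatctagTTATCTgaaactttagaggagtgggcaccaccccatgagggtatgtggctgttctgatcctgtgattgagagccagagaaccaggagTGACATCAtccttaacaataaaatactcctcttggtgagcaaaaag
Pthlh: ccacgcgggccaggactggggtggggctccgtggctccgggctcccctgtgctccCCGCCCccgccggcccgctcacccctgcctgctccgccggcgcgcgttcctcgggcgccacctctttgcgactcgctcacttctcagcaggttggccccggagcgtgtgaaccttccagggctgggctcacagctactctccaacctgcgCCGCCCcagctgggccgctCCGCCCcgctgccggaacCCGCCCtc
The Pth stretch was 39.2% G and C with 1 CpG, and 10.3% of the 32851 mouse promoter windows of that length in the table had a lower share. It held TGACATCA starting 46 bases before the start, a motif found in 2.93% of all windows, a reverse AGATAA at 133 bases (9.99% of windows) and TATAAA at 249 bases (12.4%). The Pthlh stretch was 75.2% G and C with 26 CpG, above 96.1% of windows, and held 4 GC boxes, a motif found in 32.7% of windows. None of the 9 stretches held ATGCGGGT, which 0.207% of windows have. The stretches of Casr and Gcm2 were both 48.8% G and C with 1 CpG, and those of Pth1r ranged from 56.0% to 70.4%. A match describes letters and is not a binding site.

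Pth was read in both frontal libraries and in neither parietal-interparietal library. It had 48 counts in frontal library 1, 107 in frontal library 2 and 0 in each of the others. The gene (ENSMUSG00000059077) lies on chromosome 7, 113385580 to 113388570, on the minus strand (GRCm38), with 3 exons in the 1 annotated transcript of 710 bases. In CPM, frontal library 1 was at 1.67 (95% exact Poisson interval 1.23 to 2.21) and frontal library 2 at 3.04 (2.49 to 3.67), a mean of 2.35 ± 0.968 (SD, n = 2). The floor of 3 counts stood at 0.123 and 0.111 CPM in parietal-interparietal libraries 1 and 2. The 95% exact Poisson intervals of these zeros reached higher, to 0.151 and 0.136 CPM. Against a floor of 3 counts over both of these libraries (0.0582 CPM), the frontal mean was at least 40.5-fold higher, and the groups did not overlap.

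The size of that bound depended on how much depth stood behind the zeros. It was at least 52.3-fold and 28.5-fold with frontal library 1 or 2 left out, and at least 21.3-fold and 19.1-fold with parietal-interparietal library 1 or 2 left out. Frontal library 2 held 1.82 times the Pth level of frontal library 1. Between 68.3% and 74.4% of the counts from 1 to 20 were even numbers. If every 2 counts were 1 fragment, the bound would be at least 20.3-fold, and the intervals of the frontal libraries would widen to 1.07 to 2.48 and 2.30 to 4.002 CPM and overlap. Intervals and floors cover counting error only. Among the 20947 tested genes, 25 called genes were at 0 in both parietal-interparietal libraries, Pth among them. Nothing is read from the call of Pth, since the contrast was known when the set was proposed. With 0 in the other group, Pth passed the filter on low counts through its frontal counts alone.

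The neighbours of Pth were read in all 4 libraries. Btbd10, the nearest protein-coding gene on the side of lower coordinates, 16188 bases away, was at 22.4 and 35.0 CPM in the frontal and 36.3 and 37.9 CPM in the parietal-interparietal libraries (edgeR adjusted p = 0.207). Far1, 125264 bases away on the other side, was at 73.3 and 81.5 against 71.7 and 71.6 CPM (adjusted p = 0.481). No annotated gene overlapped Pth.

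Pthlh (ENSMUSG00000048776, chromosome 6, 147252101 to 147264183, minus strand), which encodes PTHrP, was read in every library. Frontal libraries 1 and 2 had 72 and 112 counts, and parietal-interparietal libraries 1 and 2 had 40 and 53. These corresponded to 2.50 and 3.18 CPM against 1.64 and 1.95 CPM, so that both frontal libraries lay above both others. The frontal mean was 2.84 ± 0.479 and the other mean 1.80 ± 0.224 CPM (SD, n = 2 each), a ratio of 1.58 and a log2 fold change of 0.66 ± 0.34 (SE). The exact Poisson interval of the lowest frontal library, 1.96 to 3.15 CPM, overlapped that of the highest parietal-interparietal library, 1.46 to 2.56 CPM. Both frontal libraries were above both others for 28.9% of all tested genes, so this order is common in the table.

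Pth2, which encodes TIP39 (ENSMUSG00000038300, chromosome 7, 45180995 to 45181838, plus strand), had 8 counts in frontal library 1 and 0 in the other 3 libraries. At 0.278 CPM (95% exact interval 0.120 to 0.548) it was above the floor of 3 counts in that library only, and frontal library 2, the deepest, had none. Gfy, a gene of olfactory neurons whose 5′ end lies 1426 bases before that of Pth2 on the other strand and which was named after its values were seen, had 123 and 98 counts in the frontal and 17 and 24 in the parietal-interparietal libraries (edgeR adjusted p = 0.00698).

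Among the ligands, the order of levels per length differed between the groups. Divided by the length of all annotated exons, Pth stood at 2.35 and 4.28 CPM per kb in frontal libraries 1 and 2 and Pthlh at 1.55 and 1.97 CPM per kb. Pth was thus 1.52 and 2.18 times as abundant as Pthlh per length in the frontal libraries. Divided by length, the exact Poisson intervals of Pth and Pthlh overlapped in frontal library 1 and not in frontal library 2. In the parietal-interparietal libraries Pthlh was at 1.01 and 1.21 CPM per kb and Pth at 0. Of 20924 tested genes with a length, 54.5% were below Pth and 42.3% below Pthlh per length in the frontal libraries, and 33.6% were below Pthlh in the parietal-interparietal libraries.

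**Figure D1:**
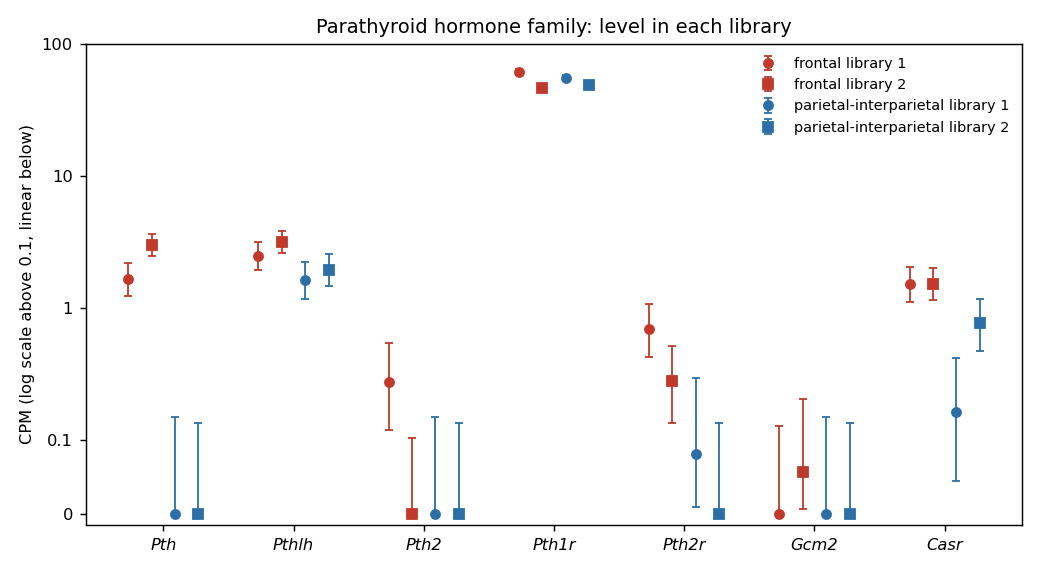
Level of the 7 genes in CPM (vertical axis, log scale above 0.1 and linear below) in each library. Points are libraries (circles library 1, squares library 2), red frontal and blue parietal-interparietal, and bars are 95% exact Poisson intervals of the count. Pth1r stood at 46.8 to 61.6 CPM in all 4 libraries, and Pth at 1.67 and 3.04 CPM in the frontal libraries and 0 in the others.

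Pth1r was the only member with a high level, and its groups overlapped. The gene (ENSMUSG00000032492, chromosome 9, 110722085 to 110747145, minus strand), which encodes the receptor of PTH and PTHrP, was counted 1771 and 1648 times in frontal libraries 1 and 2. In parietal-interparietal libraries 1 and 2 its counts were 1345 and 1322. In CPM, frontal library 1 was the highest at 61.6 and frontal library 2 the lowest at 46.8, with 55.0 and 48.7 between them. The group means were 54.2 ± 10.5 and 51.9 ± 4.47 CPM (SD, n = 2 each), and the log2 fold change of 0.06 ± 0.13 (SE) was smaller than its error. Its sign depended on the libraries, at -0.15 and 0.24 with frontal library 1 or 2 left out, and 0.15 and -0.03 with parietal-interparietal library 1 or 2 left out. Myl3, a myosin light chain gene of heart and slow muscle, overlaps Pth1r on the other strand, with 95 bases of shared exon. Myl3 was lower in the frontal libraries, at 4.31 and 6.45 CPM against 20.9 and 16.7 CPM (edgeR adjusted p = 0.000547, log2 fold change -1.79 ± 0.21), and whether the counting used strand is not given in the sources used here.

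Per length Pth1r ranked 1st of the 15 class B receptor genes of the table. It stood at 21.1 and 16.0 CPM per kb in the frontal and 18.8 and 16.7 CPM per kb in the parietal-interparietal libraries, with 88.5% and 87.9% of tested genes below it in the groups. The next receptors were Adcyap1r1, the PACAP receptor of neural tissue, at 4.52, 4.07, 3.35 and 3.70 CPM per kb in the same order, and Calcrl, a receptor of adrenomedullin and CGRP, at 1.70, 2.65, 1.72 and 1.94 CPM per kb. These 3 ranges did not overlap. With the longest transcript as length, Pth1r was at 26.7 and 20.3 CPM per kb in the frontal libraries. Within each library Pth1r exceeded its ligand Pthlh per length, by 13.6 and 8.14 times in the frontal and 18.6 and 13.8 times in the parietal-interparietal libraries.

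Pth2r (ENSMUSG00000025946, chromosome 1, 65282056 to 65389244, plus strand), the receptor of TIP39, had few counts. Frontal libraries 1 and 2 had 20 and 10, and parietal-interparietal libraries 1 and 2 had 2 and 0. These were 0.695 and 0.284 against 0.0818 and 0 CPM, and the groups did not overlap, with both parietal-interparietal libraries under the floor of 3 counts. The exact Poisson interval of frontal library 2, 0.136 to 0.522 CPM, overlapped that of parietal-interparietal library 1, 0.00991 to 0.296 CPM. Among the 15 class B receptors per length, Pth2r ranked 7 in the frontal libraries, at a mean of 0.190 CPM per kb, next to Gcgr at 0.141. In the parietal-interparietal libraries it ranked 14, at 0.0159 CPM per kb, next to Crhr2 at 0.0232. In both groups its libraries overlapped those of that neighbour.

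**Figure D2:**
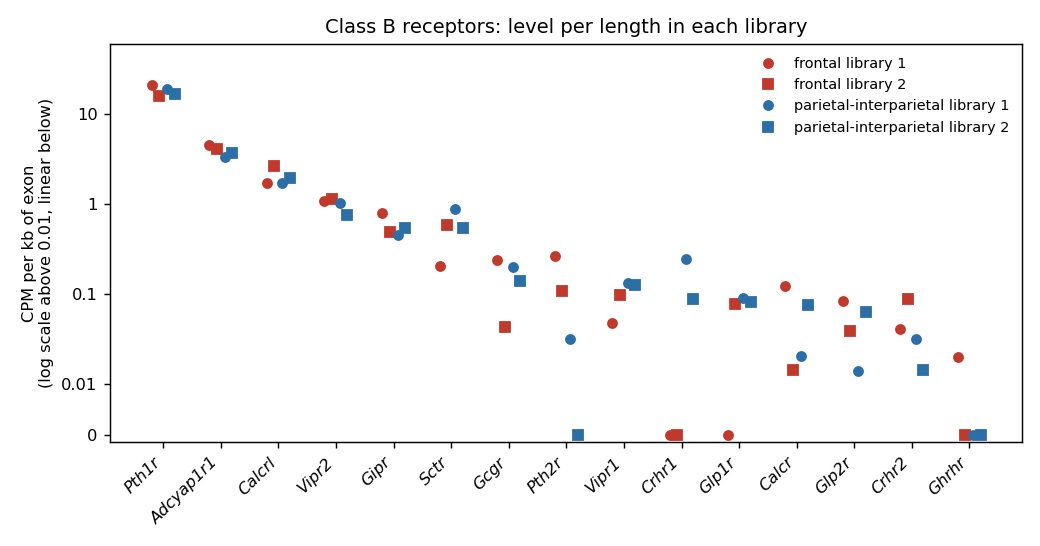
Level per kb of exon (vertical axis, CPM per kb, log scale above 0.01 and linear below) of the 15 class B receptor genes, ordered by their mean over the 4 libraries. Points are libraries (circles library 1, squares library 2), red frontal and blue parietal-interparietal. Pth1r lies above every other receptor in each library, between 16.0 and 21.1 CPM per kb, and Pth2r between 0 and 0.269.

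Casr (ENSMUSG00000051980, chromosome 16, 36493696 to 36562141, minus strand) was counted 44 and 54 times in frontal libraries 1 and 2. Parietal-interparietal libraries 1 and 2 had 4 and 21 counts. The frontal libraries were nearly equal at 1.530 and 1.533 CPM. The others were at 0.164 and 0.774 CPM, so the groups did not overlap. The exact Poisson interval of frontal library 1, 1.11 to 2.05 CPM, overlapped that of parietal-interparietal library 2, 0.479 to 1.18 CPM. The means were 1.53 ± 0.00252 and 0.469 ± 0.431 CPM (SD, n = 2 each), a log2 fold change of 1.68 ± 0.66 (SE). The distance between the groups turned on which parietal-interparietal library was used. The log2 fold change was 0.98 without library 1 of that group and 3.19 without library 2.

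Gcm2 (ENSMUSG00000021362, chromosome 13, 41101427 to 41111035, minus strand) had 2 counts in frontal library 2 and 0 in the other 3 libraries, at or under the floor of 3 counts in each. Per length the 7 genes ranked, in the frontal libraries, Pth1r at 18.5 ± 3.57, Pth at 3.32 ± 1.36, Pthlh at 1.76 ± 0.296, Casr at 0.325 ± 0.000533, Pth2 at 0.208 ± 0.295, Pth2r at 0.190 ± 0.113 and Gcm2 at 0.00860 ± 0.0122 CPM per kb (SD, n = 2). In this order Pth2, at 0.416 and 0 CPM per kb, overlapped its neighbours Casr and Pth2r, and the other neighbours did not overlap. In the parietal-interparietal libraries the order was Pth1r at 17.7 ± 1.53, Pthlh at 1.11 ± 0.138, Casr at 0.0994 ± 0.0915 and Pth2r at 0.0159 ± 0.0224 CPM per kb, with Pth, Pth2 and Gcm2 at 0.

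Of the 7 genes, 4 (Pth, Pthlh, Pth1r and Casr) passed the filter on low counts. Pth, Pthlh and Casr lay higher in both frontal libraries than in both others, as did Pth2r, which did not pass, and as did 28.9% of all tested genes. One of the 4, Pth, was among the genes called, beside 12.7% of all tested genes, and nothing is read from this since the contrast was known when the set was proposed. The count of called members was 2 and 4 with frontal library 1 or 2 left out and 1 with either of the others left out, where 24.2%, 32.6%, 3.89% and 3.84% of all tested genes were called with frontal library 1, frontal library 2, parietal-interparietal library 1 or parietal-interparietal library 2 left out.

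The genes with profiles nearest to those of Pth and Pthlh were named by the distance between log2 CPM values over the 4 libraries, each centred on its mean. Nearest to Pth were Neurod2, a factor of cortical neurons, at a distance of 0.60, Ttr, the transthyretin gene of the choroid plexus (0.64), and Bpifa1, which encodes a secreted protein of airway and nasal epithelium (0.75), against a length of 5.10 for the profile of Pth itself. Neurod2 was at 48.9 and 49.2 against 1.51 and 1.33 CPM, Ttr at 748.3 and 778.1 against 29.6 and 25.7 CPM, and Bpifa1 at 5.36 and 7.10 against 0.0818 and 0.221 CPM. Nearest to Pthlh, with a profile length of 0.70, were Gpr27, an orphan receptor (0.04), Kif19a, a kinesin of cilia (0.07), and Dennd2d (0.07). Gpr27 was at 11.5 and 14.9 against 7.69 and 9.36 CPM. Pth was at 0 in 2 libraries, so the prior count of 2 fixes the length of its profile and with it which genes are nearest. With 4 libraries in 2 groups, such likeness describes mainly the size of the group difference.

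Summed markers of choroid plexus, like those of cerebral cortex, were higher in the frontal libraries, where Pth, Casr and Pth2r were higher too. Choroid plexus markers summed to 980.6 and 1032 CPM in the frontal and 205.0 and 204.7 CPM in the parietal-interparietal libraries, with 4 of 12 higher and 0 lower (0 lower also in DESeq2 and at an unadjusted p under 0.05). Most of the difference in the sum was Ttr, at 748.3 and 778.1 against 29.6 and 25.7 CPM. The other 8 markers were not called, and the median log2 fold change of the list was 0.53. Olfactory neuron and nasal genes were higher, Omp, the olfactory marker protein, at 0.974 and 2.02 against 0.164 and 0.258 CPM and Cyp2g1, a cytochrome P450 of olfactory mucosa, at 4.49 and 3.83 against 0 and 0.147 CPM (edgeR adjusted p = 0.0227 and 0.000547). Both lie outside the rule for names and were picked after their values were seen. The call of Omp was lost when frontal library 2 or any one of the parietal-interparietal libraries was left out. Their list as a whole, which also holds inner ear genes, had 2 higher and 5 lower of 11. The inner ear genes Tecta and Tectb were lower, with log2 fold changes of -2.77 and -4.41. Their list summed to 154.2 and 146.6 against 238.6 and 226.6 CPM.

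Other marker lists moved less or the other way. Meningeal markers were lower (7 lower and 1 higher of 15, summed 1386 and 1385 against 1624 and 1615 CPM), as were those of cartilage (4 lower of 14, summed 667.6 and 640.4 against 832 and 807.9 CPM). Neuron markers were 2 higher and 5 lower of 12 (summed 941.6 and 986.8 against 1111 and 1124 CPM), and midbrain and hindbrain markers summed to 74.5 and 93.8 against 162.5 and 176.8 CPM. Epidermal markers had 1 lower of 12 (Krt10) and summed to 895.2 and 838.6 against 945.9 and 939.8 CPM. No marker of cartilage, epidermis, or midbrain and hindbrain was called higher in edgeR (0 in each also in DESeq2, and 0, 1 and 0 at an unadjusted p under 0.05). Osteoblast markers summed to 3890 and 3991 against 5000 and 4972 CPM, with 2 of 16 higher and 3 lower. Their median log2 fold change was 0.16, opposite in sign to the change of the sum. Ibsp was higher, and the type I collagen genes Col1a1 and Col1a2 were lower, the latter named after its values were seen. Without these 2 collagen genes the list summed to 1434 and 1543 against 1449 and 1417 CPM. Of 13 markers of thymus and pharyngeal endoderm, 10 were tested, 1 (Krt8) was higher and 0 were lower (0 in DESeq2, 2 at an unadjusted p under 0.05). The list summed to 499.4 and 471.6 against 540.8 and 542.9 CPM, and the thymus factor Foxn1 had 8 and 6 counts in the frontal and 14 and 6 in the other libraries. The part of these tissues in the levels of Pth, Casr and Pth2r was not tested. With 1 library left out, the number called ran from 12 to 14 for cortex, 6 to 11 for midbrain and hindbrain, 3 to 8 for choroid plexus, 4 to 13 for meninges, 1 to 6 for cartilage, 4 to 10 for neurons, 4 to 9 for osteoblasts, 0 to 8 for epidermis, 4 to 8 for the olfactory and inner ear list and 1 to 3 for thymus and pharynx. The lower end of each of these ranges came with one of the parietal-interparietal libraries left out and the upper end with one of the frontal libraries left out.

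**Figure D3:**
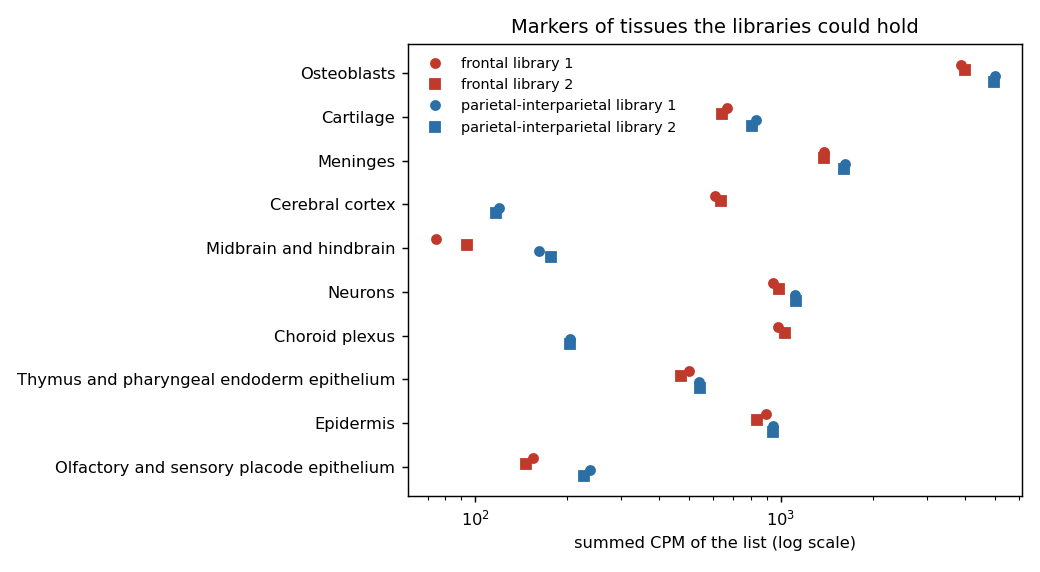
Summed CPM (horizontal axis, log scale) of 10 lists of tissue markers in each library. Points are libraries (circles library 1, squares library 2), red frontal and blue parietal-interparietal. Cerebral cortex (607.4 and 636.6 against 119.4 and 116.7 CPM) and choroid plexus (980.6 and 1032 against 205.0 and 204.7 CPM) lie farther right in the frontal libraries, midbrain and hindbrain farther left. Most of the choroid plexus sum in the frontal libraries is Ttr.

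Other genes with roles in forming the parathyroid gland were listed apart from Gcm2. Of 20 tested genes of this list, 2 were higher and 4 lower in the frontal libraries and 14 were not called, with a median log2 fold change of -0.25 against 0.01 over all tested genes. Chga, which encodes chromogranin A of secretory granules in parathyroid, neuroendocrine cells and neurons, was 2.40-fold higher, at 13.8 ± 2.06 against 5.75 ± 0.671 CPM (edgeR adjusted p = 0.00187). Sox3, a factor of the pharyngeal pouches and of neural progenitors, was 5.34-fold higher at 20.8 ± 0.714 against 3.91 ± 0.893 CPM (adjusted p = 3.73e-05). Gata3, a factor upstream of Gcm2 that is also made in the midbrain and inner ear, was 3.09-fold lower at 7.62 ± 1.63 against 23.6 ± 0.965 CPM (adjusted p = 0.000264). Bmp4 and Maf were lower, with log2 fold changes of -0.59 and -0.67. The call of Bmp4 was lost with either of the parietal-interparietal libraries left out, and 10 genes of the list were called with frontal library 2 left out. Gata3 is also on the midbrain list.

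The branch of PTH1R signalling through cAMP had no gene called higher in edgeR (0 of 30, also 0 in DESeq2 and at an unadjusted p under 0.05), beside 6.25% of all tested genes. Of the 30 tested genes, 6 were lower in the frontal libraries, beside 6.44% of all tested genes, and 24 were not called. The list covers the Gs protein, adenylyl cyclases, protein kinase A, its targets and the phosphodiesterases. Its median log2 fold change was -0.09. The same shares over all tested genes, 6.25% higher and 6.44% lower, stand beside every list here, and no list was tested as a set. Crtc2, a cAMP-controlled coactivator of CREB, was 1.70-fold lower at 44.9 ± 3.83 against 76.3 ± 3.15 CPM (edgeR adjusted p = 0.000956). Prkar2b, a regulatory subunit of protein kinase A, was 1.72-fold lower at 78.4 ± 21.8 against 135.3 ± 4.85 CPM (adjusted p = 0.00790). The cyclases Adcy1, Adcy5 and Adcy7 and the subunit Prkar2a had log2 fold changes of -0.42, -0.46, -0.69 and -0.31, and all 4 calls were lost with either of the parietal-interparietal libraries left out. Gnas, which encodes the Gs alpha subunit and was named for its role, was at 37.6 ± 6.09 against 41.1 ± 4.33 CPM (adjusted p = 0.58). The number called was 11 and 10 with frontal library 1 or 2 left out, and 2 with either of the others left out.

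The phospholipase C branch, with arrestins, receptor kinases and scaffolds, had 2 genes higher, 2 lower and 23 not called of 27 (median -0.13). Plcb1, a phospholipase C of neurons, was 2.09-fold higher at 19.0 ± 1.71 against 9.07 ± 0.945 CPM (edgeR adjusted p = 0.00163), and Itpr1, a calcium release channel abundant in neurons, rose by 0.37 on the log2 scale. Snx27, which returns PTH1R and other receptors from endosomes to the membrane, was 1.71-fold lower at 68.0 ± 6.72 against 116.3 ± 1.08 CPM (adjusted p = 0.000686). The channel Itpr3 was lower, with a log2 fold change of -0.62. The calls of Itpr1 and Itpr3 were lost with either of the parietal-interparietal libraries left out. The number called was 12 and 14 with frontal library 1 or 2 left out, 2 with either of the others left out and 8 with library totals as scaling, and Gnaq, the Gq alpha subunit, was just short of a call at -0.33 ± 0.10 (adjusted p = 0.0536).

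Genes that PTH is known to induce or repress in bone cells moved in both directions. Of 20 tested, 2 were higher, 5 lower and 13 not called, with a median log2 fold change of -0.44. The nuclear receptors Nr4a3 and Nr4a2 were higher, Nr4a3 by 5.21-fold at 7.03 ± 2.42 against 1.35 ± 0.339 CPM (edgeR adjusted p = 0.00149) and Nr4a2 by 1.68-fold (adjusted p = 0.0286). The immediate early genes Fosb, Junb and Fos were 2.22-fold, 2.02-fold and 1.58-fold lower, Fosb at 36.7 ± 0.824 against 81.3 ± 2.09 CPM (adjusted p = 4.99e-05). Snai1, a repressor in mesenchyme, was 1.91-fold lower, and the growth factor Igf1 1.47-fold lower. The call of Nr4a2 was lost with either of the parietal-interparietal libraries left out, that of Fos with library 1 and that of Igf1 with library 2 left out. The number called was 10 and 14 with frontal library 1 or 2 left out, and 5 with either of the others left out. Nr4a2, Nr4a3 and the AP-1 genes are also made in neurons, and PTH signalling itself was not measured.

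The list for the loop of hedgehog and PTHrP in cartilage had 3 higher, 7 lower and 19 not called of 29 (median -0.19). Besides hedgehog genes it holds factors of cartilage and of the cell cycle. Ihh, the hedgehog of growth cartilage, named for its role, had 9 and 8 counts in the frontal and 14 and 10 in the parietal-interparietal libraries (edgeR adjusted p = 0.576). The receptor Ptch1, itself a target of hedgehog, was 1.38-fold lower at 54.1 ± 2.66 against 74.5 ± 2.47 CPM (adjusted p = 0.00937). Gli1 and Hhip, hedgehog genes of the same list, were not called. Their log2 fold changes were -0.08 and -0.48 (edgeR adjusted p = 0.811 and 0.359). Sox5 and Sox6, partners of Sox9 in cartilage that neural progenitors also make, were 2.39-fold and 1.71-fold higher (adjusted p = 0.000247 and 0.00109). Cdkn1c, a cell cycle inhibitor, was 1.40-fold lower at 1461 ± 159 against 2037 ± 27.1 CPM. Nkx3-2, a repressor in early cartilage that stood farthest from 0 in the list and was named after its values were seen, had 0 and 4 counts in the frontal and 29 and 16 in the other libraries (adjusted p = 0.0454). The calls of Ptch1 and Nkx3-2 were lost with either of the parietal-interparietal libraries left out, and that of Cdkn1c with library 1 of that group left out. The number called was 14 and 17 with frontal library 1 or 2 left out, and 2 and 5 with parietal-interparietal library 1 or 2 left out.

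Of 25 tested genes for calcium, vitamin D and phosphate hormones, 1 was higher, 1 lower and 23 not called (median -0.15). Trpv6, an epithelial calcium channel, was 2.61-fold higher at 3.34 ± 0.388 against 1.28 ± 0.125 CPM (edgeR adjusted p = 0.0258), and the calcium pump Atp2b4 1.23-fold lower. Both calls were lost with either of the parietal-interparietal libraries left out, which left 0 called, against 6 and 12 with frontal library 1 or 2 left out. Cyp24a1, Trpv5, Gprc6a and Cldn16, genes of kidney and endocrine calcium handling, were at 0 in all 4 libraries. Calb1 and Calca had log2 fold changes of -0.73 and -0.55 (adjusted p = 0.0602 and 0.0639) and Rxrb one of 0.33 (adjusted p = 0.132).

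Among 16 tested class B receptors and ligands other than the members, 0 were higher (0 in DESeq2, 1 at an unadjusted p under 0.05), 1 lower and 15 not called (median -0.31). Adcyap1, which encodes the neuropeptide PACAP, was 2.48-fold lower at 2.60 ± 0.504 against 6.43 ± 0.805 CPM (edgeR adjusted p = 0.00986) and lost its call without parietal-interparietal library 1. Its receptor Adcyap1r1 was at 28.4 ± 2.08 against 23.3 ± 1.60 CPM (adjusted p = 0.153). Secretin (Sct) and its receptor (Sctr) had log2 fold changes of -1.39 and -0.83, and adrenomedullin (Adm) one of -0.87, none of them called. The number called was 3 and 5 with frontal library 1 or 2 left out, and 0 and 1 with parietal-interparietal library 1 or 2 left out.

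**Figure D4:**
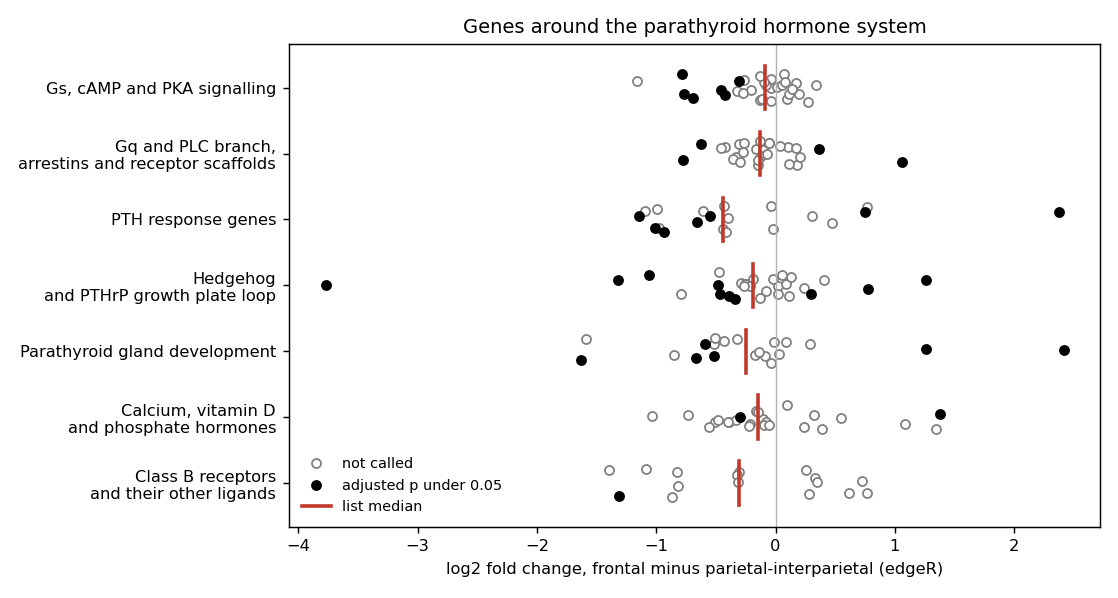
Log2 fold change, frontal minus parietal-interparietal (horizontal axis), of each tested gene of 7 lists around the parathyroid hormone system. Filled points were called at an adjusted p under 0.05 (edgeR), open points were not, and red bars are list medians, which lie between -0.44 (PTH response genes) and -0.09 (Gs, cAMP and PKA). In the cAMP list no filled point lies above 0. Of all tested genes 6.25% were called higher and 6.44% lower, and no list was tested as a set.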

How the data were processed

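Poly(A) RNA of 4 mouse calvaria libraries was counted per gene. The deposited values are raw counts, 1 whole number per gene and library. The submitters' processing notes name the build GRCm38, HISAT2 2.1.0, featureCounts 2.0.1 and Trim Galore 0.6.7. How strand and multiply matched reads were handled, and which annotation the authors used, is not given in the sources used here. Symbols, positions and exon lengths came from GENCODE M21 (GRCm38), which matched 55227 of 55487 gene IDs. Among counts of 1 to 20, 68.3% to 74.4% were even.

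Counts were filtered with filterByExpr (minimum count 10, 20947 genes), scaled by TMM and put to the two-sided quasi-likelihood test of edgeR 4.0.16 (R 4.3.3), without covariates, with 2 residual degrees of freedom and Benjamini-Hochberg adjustment over all genes tested. A standard error is the size of the log2 fold change over the root of its F statistic. The procedure was tested on simulated data. Alternatives were DESeq2 1.42.0, library totals only, other filters, halved counts, the replicate number as a block, the parietal-interparietal pair summed, and each library left out.

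The members and lists were chosen with earlier results of these data known. Named genes are the members, up to 5 genes per pathway list with the smallest p and all called ones where these were 8 or fewer, up to 2 called genes per marker list, the 3 nearest profiles of members whose groups differed by more than both within-group ranges, and the neighbours of Pth. Myl3, Gfy, Omp, Cyp2g1, Nkx3-2, Col1a2, Gcgr, Crhr2, Foxn1, Gnas, Ihh, Gli1, Hhip, Calcrl and genes at 0 lie outside this rule. Profiles used log2 CPM with a prior count of 2. No proteins were analysed here, and some genes that the rule names are not reported here. Figures were drawn with matplotlib 3.10.9.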

Additional observations from a re-analysis of the deposited data

How the results depend on the processing

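Of 57 called genes picked by the rule for names or added to it, other than the members, 34 kept their call in every one of 11 alternatives in which they were tested, and the others lost it with the parietal-interparietal pair summed or one of the pair left out, Gpr27 and Omp also elsewhere. The count of called genes fell to 791 with the pair summed and ran from 865 to 7279 with 1 library left out. Summing the pair gave 2 called genes for the cAMP list, 2 for the phospholipase C list, 4 for PTH response genes, 3 for the hedgehog loop and 0 for calcium hormones. With 1 library left out these lists ran from 2 to 11, 2 to 14, 5 to 14, 2 to 17 and 0 to 12, the parathyroid gland list from 4 to 10 and the class B list from 0 to 5. Library totals alone gave 8 for the phospholipase C list. DESeq2 and a minimum of 1 CPM moved no pathway list by more than 1.5 times. No filter gave 8 for the phospholipase C list, 5 for calcium hormones and 3 for class B genes. With no filter 2 members were called, and 1 to 4 with 1 library left out. Halving the counts put the Pth bound at 20.3-fold, and it ran from 19.1 to 52.3 with 1 library left out. Casr ran from 0.98 to 3.19 on the log2 scale. Gnas ran from -0.30 to 0.022, turning sign without frontal library 2. The cause of these shifts was not tested.

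No large shift shared by libraries of the same replicate number was seen: the differences between libraries 1 and 2 of the groups correlated at 0.0179 over 20947 genes. The labels do not say whether the libraries are paired, and this value cannot settle it. With the replicate block 3306 genes were called, 8 in the phospholipase C list and 4 in the calcium list, and 2 members, and 2 epidermal markers in place of 1, and the counts of the other lists stayed within 1.5 times. Depth limits Pth2, Pth2r and Gcm2, which had at most 20 counts in a library, and the zeros of Pth.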
